A study of Mus musculus with 27 samples.

Results

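The Notch pathway and Hey factors were followed across 6 genotypes of the embryonic mouse heart through 10 listed genes of the 19935 genes on the array: the receptors Notch1, Notch2 and Notch4, the ligands Jag1 and Dll4, the nuclear mediator Rbpj, and the target genes Hey1, Hey2, Heyl and Hes1. Each gene was found by its symbol in the platform annotation and read from its probe set with the highest mean, and all 10 were found. The members were listed by name, with earlier results of these data known, and the rule itself uses no measured value.

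Notch receptors are cut when a Jagged or Delta-like ligand on a neighbouring cell binds them, and the freed intracellular part enters the nucleus and joins the DNA-binding protein RBPJ to switch on targets, among them the Hes and Hey repressors. In the developing heart, Notch1, Notch4 and Dll4 are known from the endocardium and vessel endothelium, where the pathway acts in trabeculation and in the formation of valve mesenchyme. Hey2 is known as a transcriptional repressor made in compact ventricular myocardium, where it holds down atrial and trabecular genes, and Hey1 as its relative in the atria and endocardium.

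The study asked how the dose of Brg1 (gene Smarca4), the motor subunit of the BAF complex that moves nucleosomes, acts together with the doses of the cardiac transcription factors Tbx5 and Nkx2-5. Hearts at E11.5 from mice of a C57Bl/6/BLKSW mix were profiled on Affymetrix arrays, and 27 arrays were deposited as log2 signals. The groups were the compound heterozygotes Tbx5+/-;Brg1+/- with 3 arrays and Nkx2-5+/-;Brg1+/- with 3, the single heterozygotes Tbx5+/- with 5, Nkx2-5+/- with 4 and Brg1+/- with 6, and wild type with 6. All mutants are whole hearts with a single allele lost at each named gene, the labels state neither the deleted exons nor whether hearts were pooled, and every comparison with wild type uses the same 6 wild-type arrays.

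The mean of 5 defining heart muscle genes lay between 12.2 and 13.2 on the log2 scale on all 27 arrays, which fits the tissue label. Smarca4 lay at 9.51, 9.64 and 10.01 in the arrays labelled Tbx5+/-;Brg1+/-, at 9.26 to 9.60 in Nkx2-5+/-;Brg1+/- and at 9.16 to 9.45 in Brg1+/-, against 9.95 to 10.16 in wild type. Nkx2-5 lay at 8.85 to 9.24 in Nkx2-5+/-;Brg1+/- and at 8.48, 8.48, 9.40 and 8.63 in the arrays labelled Nkx2-5+/-, against 9.17 to 9.96 in wild type. Tbx5 was not lower in the arrays labelled Tbx5+/- (8.51 to 8.90) than in wild type (8.40 to 8.96), and a whole-gene signal does not check a deletion of unstated exons. On 2 arrays Smarca4 went against the label: replicate 3 of Nkx2-5+/- had low Smarca4 (9.57) with Nkx2-5 in the wild-type range, and replicate 3 of Tbx5+/-;Brg1+/- had Smarca4 in the wild-type range. Nkx2-5 in replicate 2 of Nkx2-5+/-;Brg1+/- (9.24) also lay inside the wild-type range, near its lower end, and without that array the count of called members was the same in all 9 comparisons. Both arrays with discordant Smarca4 were kept where the labels put them, and the main results for Hey1, Hey2 and Jag1 are given with and without them.

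Hey2 is shown by sequence because its level varied most between genotypes. Of the 7 members with a promoter window, it was also the only one to match the RBPJ motif. RefSeq promoter windows (build GRCm38.p6), which run from 250 bases before to 50 after the annotated start of a gene, were given for 7 members. The targets Hey1, Heyl and Hes1 had no window and were not searched. Below are that of Hey2 (chr10:30842734-30843033, minus strand) and, for comparison, that of the ligand Jag1 (chr2:137116471-137116770, minus strand), with capitals marking each match to the RBPJ motif GTGGGAA or, read from the other strand, TTCCCAC.
Hey2: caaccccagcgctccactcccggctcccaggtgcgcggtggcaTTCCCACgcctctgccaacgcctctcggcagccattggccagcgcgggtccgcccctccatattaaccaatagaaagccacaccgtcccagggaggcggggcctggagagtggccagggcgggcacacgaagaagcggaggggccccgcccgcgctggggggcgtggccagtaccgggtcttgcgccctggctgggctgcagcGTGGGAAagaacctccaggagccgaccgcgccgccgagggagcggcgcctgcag
Jag1: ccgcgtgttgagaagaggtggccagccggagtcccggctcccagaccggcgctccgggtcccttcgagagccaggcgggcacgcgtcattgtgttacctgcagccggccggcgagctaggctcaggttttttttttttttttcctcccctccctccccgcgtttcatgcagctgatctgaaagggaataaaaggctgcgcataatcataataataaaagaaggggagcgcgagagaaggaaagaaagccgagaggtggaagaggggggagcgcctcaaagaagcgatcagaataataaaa

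The Hey2 window holds 2 matches, whose first bases lie at -207 and -4 from the start site, the first in the other orientation to the gene and the second in the same. Of 32851 promoter windows of this length, 6.38% held at least 1 match and 0.256% held 2 or more. No window of these 7 members held the T-box letters AGGTGTGA, the NKX letters TNAAGTG or the E-box CACGTG on either strand. These occurred in 1.28%, 11.54% and 7.15% of all windows. A match is a run of letters in a window and was not tested as a bound site.

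Among the 10 members, 2 were called changed in the 9 comparisons made (each mutant against wild type, each compound against the single heterozygote of its factor, and 2 interactions with Brg1), both in Nkx2-5+/- hearts and both lower than in wild type. Hey2 was 1.55-fold lower and Hey1 1.31-fold lower there, while the receptors, the ligands, Rbpj, Heyl and Hes1 did not pass the test in any of them. A gene was called at a limma adjusted p under 0.05, with p adjusted over all 19935 genes, and limma is a linear model that shares its estimate of the spread between genes. In Nkx2-5+/- against wild type 7.89% of all genes were called and 5.16% were called lower, so 2 of 10 members is not set apart as a property of the pathway. The members' median difference was -0.10 on the log2 scale, against -0.01 over all genes, and 8 of 10 differences were below 0.

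**Figure D1:**
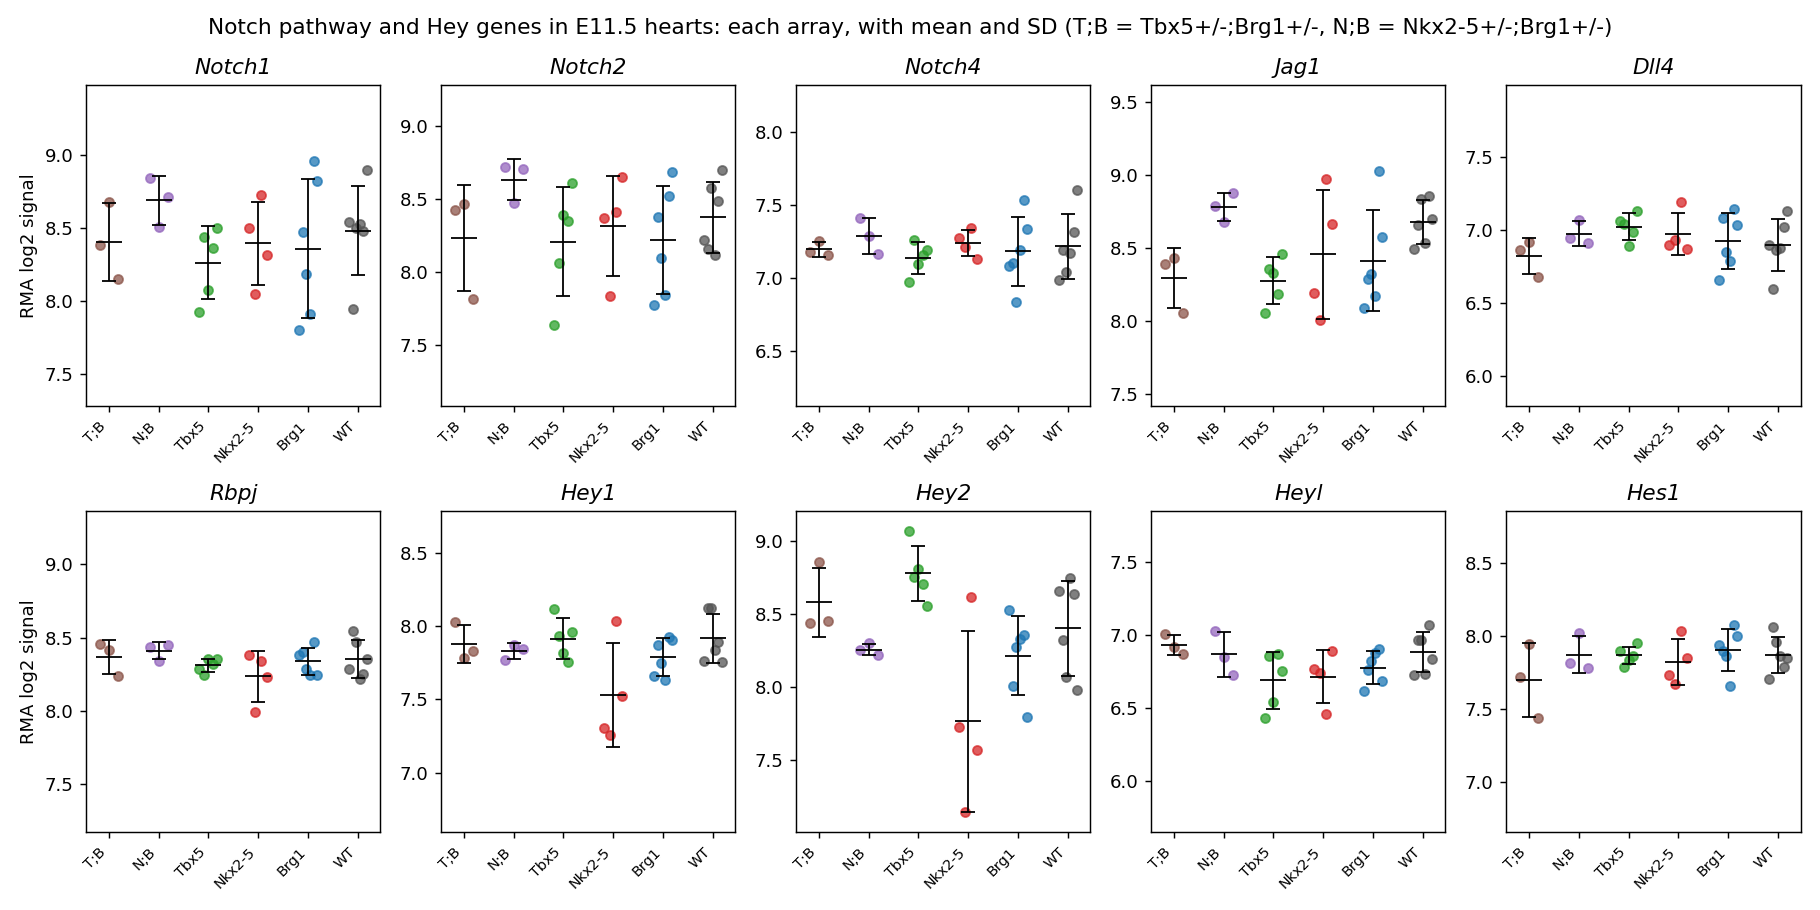
RMA log2 signal (vertical axis, a span of equal height in each panel) of the 10 members on each of 27 arrays, by genotype, with group mean and SD as bars; levels of different genes are not comparable. Of the panels, Hey2 spans the widest range of group means, 1.01, with 3 of 4 Nkx2-5+/- arrays below every wild-type array and the fourth at 8.62.

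The receptors showed no called difference in any comparison. Notch1, the main endocardial receptor, read 8.39, 8.68 and 8.15 in Tbx5+/-;Brg1+/-, 8.84, 8.51 and 8.72 in Nkx2-5+/-;Brg1+/-, 7.92, 8.44, 8.08, 8.37 and 8.50 in Tbx5+/- and 8.50, 8.05, 8.72 and 8.32 in Nkx2-5+/-. In Brg1+/- its lowest, median and highest values were 7.80, 8.33 and 8.96, against 7.95, 8.52 and 8.90 in wild type. Every mutant group overlapped wild type, while all 3 Nkx2-5+/-;Brg1+/- arrays lay above all 5 Tbx5+/- arrays, a comparison in which 0.0502% of all genes were called. The spread within a genotype (pooled SD 0.33) was nearly as wide as the range of the group means, 0.43. Notch2, a receptor of the cushion and outflow mesenchyme, had group means between 8.21 in Tbx5+/- and 8.63 in Nkx2-5+/-;Brg1+/-, against 8.38 ± 0.24 (SD, n = 6) in wild type, and its pooled SD within genotypes was 0.32. Notch4, a receptor of endothelium, moved least of the 10 members, with group means within 0.15 of each other. Its difference from wild type in Nkx2-5+/- was 0.02 with a 95% interval from -0.21 to 0.25.

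Among the ligands, Jag1, whose loss causes outflow tract and valve defects, had the lowest unadjusted p of the members in Tbx5+/-. It (probe set 10488060) read 8.39, 8.43 and 8.06 in Tbx5+/-;Brg1+/-, and 8.05, 8.35, 8.33, 8.18 and 8.46 in Tbx5+/-, against a lowest, median and highest value of 8.49, 8.67 and 8.86 in wild type. Every array of both genotypes with Tbx5 loss lay below every wild-type array, in comparisons where 0 of 19935 genes were called. The differences from wild type were -0.38 in Tbx5+/-;Brg1+/- (SE 0.18, unadjusted p = 0.0376) and -0.40 in Tbx5+/- (SE 0.15, unadjusted p = 0.0130), and after adjustment over all genes neither was called (limma adjusted p = 0.979 and 1.0). The lowest compound array, at 8.06, is replicate 3, whose Smarca4 goes against its label. Without the 2 arrays that go against their labels, the compound difference was -0.27 (limma adjusted p = 0.997). The mean of 18 endothelial markers ran from 8.11 to 8.57 in Tbx5+/-;Brg1+/- and from 8.11 to 8.47 in Tbx5+/-, against 8.22 to 8.77 in wild type, and its part in the Jag1 values was not tested.

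Jag1 scattered widely in Nkx2-5+/- and Brg1+/- (SD 0.44 and 0.34), but not in Nkx2-5+/-;Brg1+/- (SD 0.10). It read 8.79, 8.68 and 8.87 in Nkx2-5+/-;Brg1+/-, and 8.19, 8.003, 8.97 and 8.67 in Nkx2-5+/-, where the 8.97 is replicate 3, whose Smarca4 goes against its label. The Jag1 difference of Nkx2-5+/- from wild type was -0.22 (limma adjusted p = 0.470). Without the 2 arrays that go against their labels it was -0.39, also without a call (limma adjusted p = 0.0770). In Brg1+/- the lowest, median and highest values were 8.09, 8.30 and 9.03, with 4 of 6 arrays below every wild-type array. Dll4, the endothelial ligand, had group means between 6.82 in Tbx5+/-;Brg1+/- and 7.02 in Tbx5+/-, against 6.90 ± 0.18 (SD, n = 6) in wild type, and the values of all groups overlapped.

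Rbpj, through which the cut Notch receptors act on DNA, was the steadiest member between arrays of a genotype, with a pooled SD of 0.11. Its group means ran from 8.24 in Nkx2-5+/- to 8.41 in Nkx2-5+/-;Brg1+/-, against 8.35 ± 0.13 (SD, n = 6) in wild type. Its difference in Nkx2-5+/- was -0.12, with a 95% interval from -0.29 to 0.06. A second Rbpj probe set, which lies in the same table at group means of 4.77 to 5.03, was not used for these values.

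Of the targets, Hes1, a repressor used by Notch in many tissues, had group means of 7.70 ± 0.25 in Tbx5+/-;Brg1+/- (SD, n = 3) and 7.82 to 7.91 in the other mutants, against 7.87 ± 0.12 in wild type (SD, n = 6). Heyl, the Hey relative known from smooth muscle and cushion mesenchyme, read 7.01, 6.92 and 6.87 in Tbx5+/-;Brg1+/- and 6.43, 6.86, 6.54, 6.87 and 6.76 in Tbx5+/-, against a lowest, median and highest value of 6.73, 6.90 and 7.07 in wild type. All 3 compound arrays lay above every Tbx5+/- array, in a comparison where 0 of 19935 genes were called. The closest stood at 6.874 against 6.870, and it is replicate 3, whose Smarca4 goes against its label. The difference between the compound and Tbx5+/- was 0.24 (SE 0.12, unadjusted p = 0.0450, limma adjusted p = 1.0), and in the interaction of Tbx5 with Brg1 (the compound minus Tbx5+/-, less Brg1+/- minus wild type) Heyl stood at 0.35 (SE 0.15, unadjusted p = 0.0253, limma adjusted p = 1.0).

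Hey2 (probe set 10368556) read 7.73, 7.15, 8.62 and 7.57 in Nkx2-5+/-, against a lowest, median and highest value of 7.98, 8.48 and 8.75 in wild type. Arrays 1, 2 and 4 lay below every wild-type array, and replicate 3 lay within the wild-type range. The difference was -0.64 (SE 0.19, limma adjusted p = 0.0423). Without the 2 arrays that go against their labels it was -0.92 (limma adjusted p = 0.000349).

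Hey1 (probe set 10497203) followed the same arrays, with 7.30, 7.26, 8.04 and 7.52 in Nkx2-5+/-, against 7.76, 7.86 and 8.13 as the lowest, median and highest in wild type. Again arrays 1, 2 and 4 were below every wild-type array and replicate 3 was among them. The difference was -0.39 (SE 0.12, limma adjusted p = 0.0435), and -0.56 without the 2 arrays (limma adjusted p = 0.000429). The share of all genes called without the 2 arrays is not given here, for Hey2 or for Hey1. Heyl, the remaining Hey gene, differed by -0.17 (SE 0.10, limma adjusted p = 0.351). Both calls stood near the threshold: neither was made when array medians were equalised, when the 2 groups were fitted alone, or when Nkx2-5+/- replicate 1, 2 or 4 or wild-type replicate 1, 4 or 5 was left out, or with the mean of endothelial markers as a covariate.

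**Figure D2:**
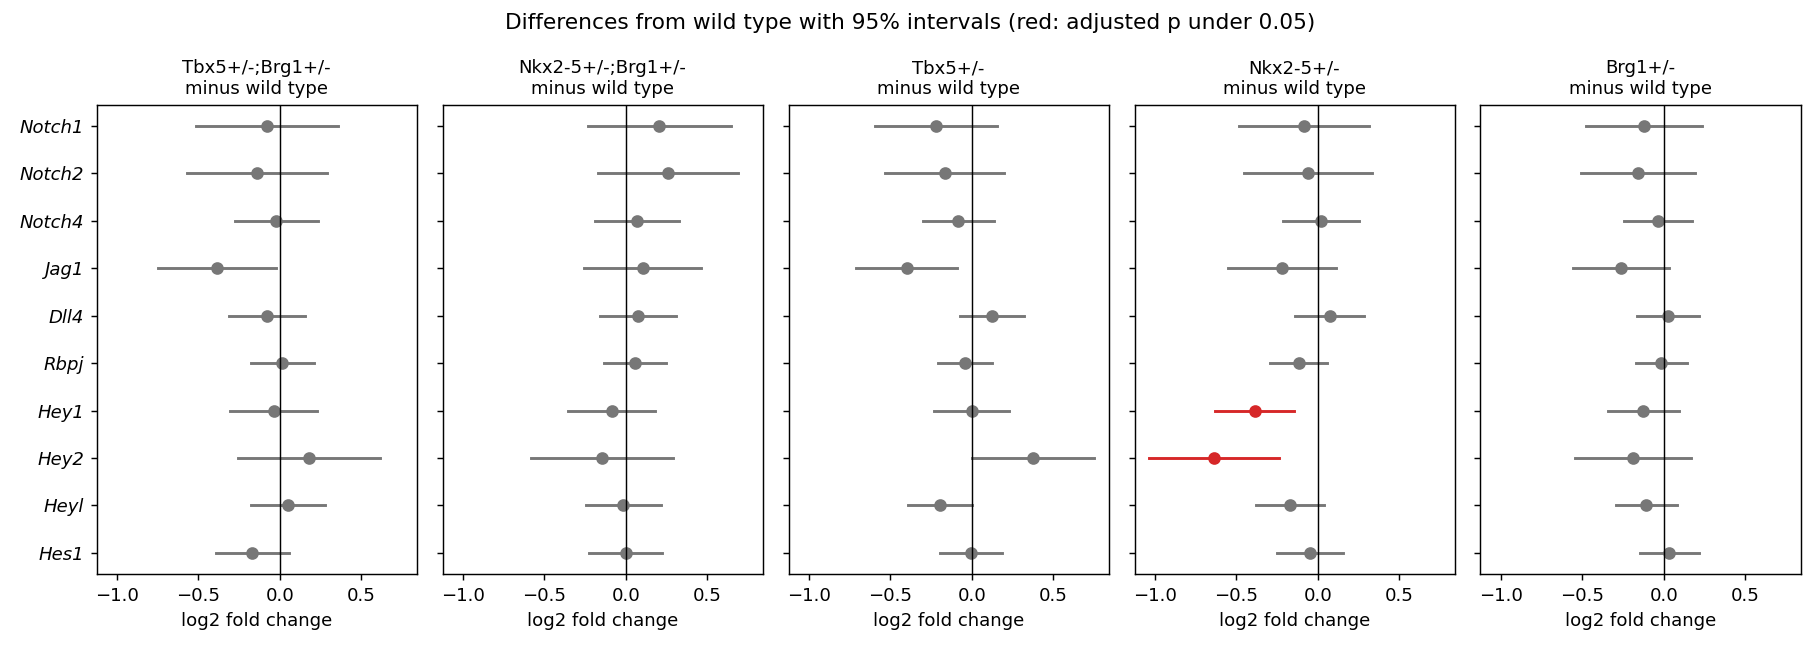
Log2 fold change from wild type (horizontal axis) with its 95% interval for the 10 members in each mutant genotype, red where the limma adjusted p was under 0.05. The 2 red points are Hey1 at -0.39 and Hey2 at -0.64 in Nkx2-5+/- hearts, and the intervals of Jag1 in both genotypes with Tbx5 loss end below 0 without a call.

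Over the 6 genotypes Hey2 averaged 8.78 ± 0.19 in Tbx5+/- (SD, n = 5), 8.58 ± 0.24 in Tbx5+/-;Brg1+/- (n = 3), 8.26 ± 0.04 in Nkx2-5+/-;Brg1+/- (n = 3), 8.22 ± 0.27 in Brg1+/- (n = 6) and 7.77 ± 0.62 in Nkx2-5+/- (n = 4), against 8.40 ± 0.33 in wild type (n = 6). Wild type thus stands below both genotypes with Tbx5 loss and above the remaining 3, and no pair of neighbours in this order differed by the test (limma adjusted p between 0.525 and 1.0). Among these pairs, Nkx2-5+/-;Brg1+/- and Nkx2-5+/-, each against Brg1+/-, had 0.0201% of all genes called. The ends of the order did, in 1 of 8 pairwise comparisons added to the 9: Hey2 was 1.01 lower on the log2 scale in Nkx2-5+/- than in Tbx5+/- (SE 0.20, limma adjusted p = 0.00285), where 11.2% of all genes were called and 7.72% were called lower. These ends were picked by their Hey2 means, and the p was not adjusted for that choice. The added pairs were not refitted without the arrays that go against their labels. Hey1 was 0.39 lower in Nkx2-5+/- than in Tbx5+/- (limma adjusted p = 0.0416), and the other 8 members were not called. In Tbx5+/- against wild type Hey2 stood at 0.38 (SE 0.18, unadjusted p = 0.0488, limma adjusted p = 1.0), with replicates at 9.07, 8.76, 8.81, 8.71 and 8.56, of which 3 lay above the highest wild-type array.

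In the other comparisons with wild type 0 of 10 members were called by limma. At an unadjusted p under 0.05 there were 0 members in Brg1+/- (0.0100% of all genes called), 2 in Tbx5+/- (Jag1 and Hey2, with 0 of 19935 genes called), 1 in Tbx5+/-;Brg1+/- (Jag1, with 0 of 19935 genes called) and 0 in Nkx2-5+/-;Brg1+/- (0.0351% of all genes called). Over all 19935 genes, 1935, 788, 873 and 1473 had an unadjusted p under 0.05 in these comparisons, in the same order. The members' median differences were -0.11 in Brg1+/-, -0.06 in Tbx5+/-, -0.06 in Tbx5+/-;Brg1+/- and 0.06 in Nkx2-5+/-;Brg1+/-, against -0.02, 0.01, 0.01 and -0.02 over all genes. In Tbx5+/-;Brg1+/- against Tbx5+/-, and in the interaction of Tbx5 with Brg1, 0 members and 0 of 19935 genes were called, with 1 member, Heyl, at an unadjusted p under 0.05 in each, as were 494 and 606 of all genes.

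In hearts that had lost a Brg1 allele as well as an Nkx2-5 allele, Hey2 and Hey1 lay within the wild-type range. Hey2 read 8.25, 8.30 and 8.22 in Nkx2-5+/-;Brg1+/-, above 3 of the 4 Nkx2-5+/- arrays, and stood 0.49 higher in the compound than in Nkx2-5+/- (SE 0.23, limma adjusted p = 0.303). Hey1 read 7.77, 7.87 and 7.85 in the compound and stood 0.30 higher (SE 0.14, limma adjusted p = 0.302). All 10 members had a difference above 0 in this comparison, with a median of 0.23 against 0.02 over all genes, but 0 were called by limma, and 0.0401% of all genes were called. At an unadjusted p under 0.05 there were 2 of 10 members and 3063 of 19935 genes. Without the 2 arrays that go against their labels, Hey2 was 0.78 higher and Hey1 0.47 higher (limma adjusted p = 0.0109 and 0.0122), and leaving out the array labelled Nkx2-5+/- replicate 3 alone also gave both calls. The 0.0401% is from the fit of all 27 arrays, and no share of all genes is given here for these calls.

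In the interaction of Nkx2-5 with Brg1, built in the same way from the Nkx2-5 genotypes, 0 members were called by limma while 4.95% of all genes were. Hey2 stood at 0.68 (SE 0.29, limma adjusted p = 0.174), Jag1 at 0.59 (SE 0.24, limma adjusted p = 0.152) and Hey1 at 0.43 (SE 0.18, limma adjusted p = 0.161), and these 3 had an unadjusted p under 0.05, as did 4024 of 19935 genes. The members' median was 0.34, against 0.03 over all genes, with 9 of 10 above 0. Without the 2 arrays all 3 were called, at 0.96, 0.76 and 0.60 (limma adjusted p = 0.00707, 0.0188 and 0.00698). Leaving out Nkx2-5+/- replicate 3 alone also gave 3 calls. The 4.95% is from the fit of all 27 arrays, and no share of all genes is given here for these calls.

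**Figure D3:**
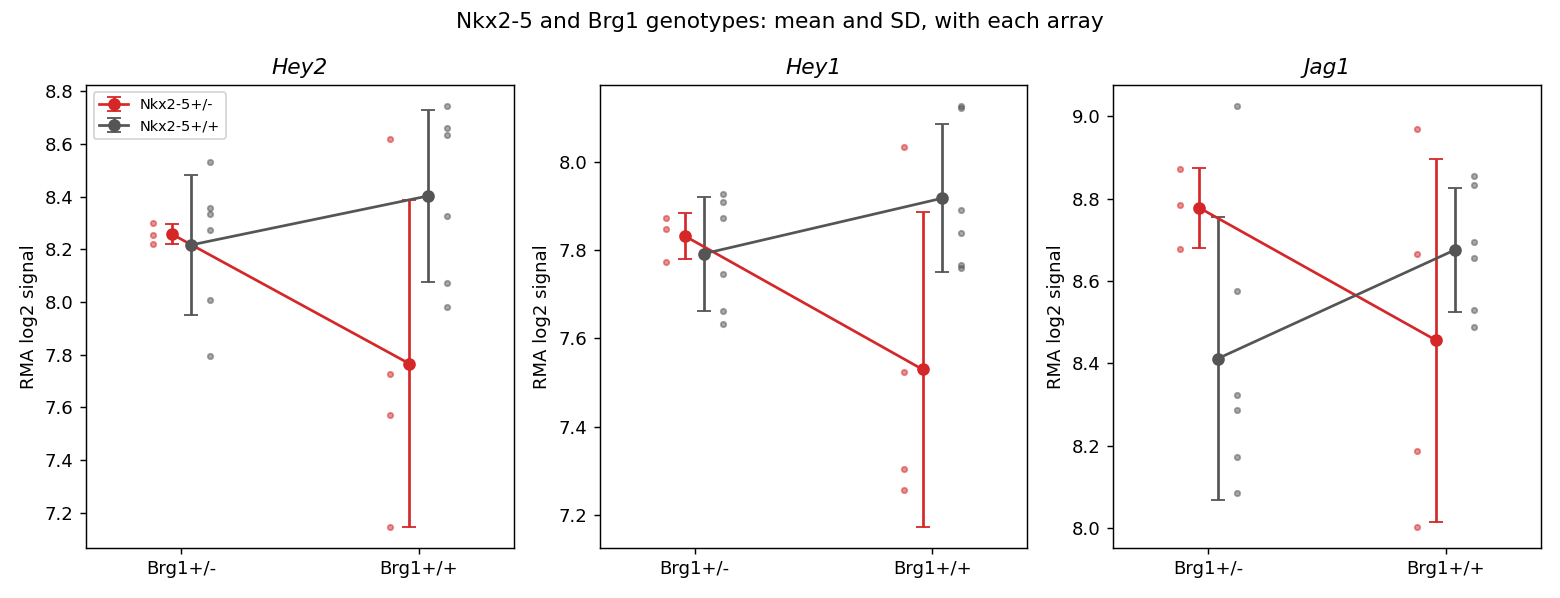
RMA log2 signal (vertical axis) of Hey2, Hey1 and Jag1 by Brg1 genotype (horizontal axis), in Nkx2-5+/- (red) and Nkx2-5+/+ (grey) hearts; large points and bars are means and SD, small points single arrays. The lines cross or converge: Nkx2-5+/- with both Brg1 alleles has the lowest Hey2 mean, 7.77, with a single array at 8.62.

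Markers of other cells moved with the same arrays. Of 16 cardiomyocyte markers, 10 were called lower and 0 higher in Nkx2-5+/- than in wild type, where 5.16% of all genes were called lower. At an unadjusted p under 0.05 there were 13 of the 16, and 4439 of 19935 genes. The mean of the 16 ran from 10.77 to 11.84 in Nkx2-5+/- arrays (11.84 being replicate 3), against 11.32 to 11.78 in wild type. Of 9 red cell markers measured of 12 listed, 4 were called higher and 0 lower, and all 9 had an unadjusted p under 0.05. Their means ran from 9.37 to 11.32 in Nkx2-5+/- against 8.70 to 10.37 in wild type. Of 18 endothelial markers 0 were called by limma and 0 had an unadjusted p under 0.05, with means from 8.02 to 8.56 in Nkx2-5+/- against 8.22 to 8.77 in wild type. Lower calls were made for 2 of 4 smooth muscle, 2 of 8 epicardial, 3 of 7 leukocyte and 0 of 12 cushion mesenchyme markers. At an unadjusted p under 0.05 these lists had 3, 4, 4 and 4 markers. In the interaction of Nkx2-5 with Brg1, where 4.95% of all genes were called, 9 of 9 red cell markers were lower (median -2.33). There 1 of 16 cardiomyocyte markers was higher (median 0.64) and 0 of 18 endothelial markers were called (median 0.36). In Nkx2-5+/-;Brg1+/- against Nkx2-5+/-, 0 of these markers and 0.0401% of all genes were called. The medians there were -1.55, 0.41 and 0.28, in the same order of lists. In whole hearts, fewer cells of a type and less RNA per cell cannot be told apart.

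With the mean of the red cell markers as a covariate, the Hey2 difference in Nkx2-5+/- was -0.34 (limma adjusted p = 0.703). With that of the cardiomyocyte markers, an alternative chosen after seeing the data, it was -0.09 (limma adjusted p = 0.937), and the Hey2 interaction of Nkx2-5 with Brg1 was 0.00 (limma adjusted p = 0.999). Hey1 kept more of its difference, at -0.33 and -0.27, without a call (limma adjusted p = 0.528 and 0.681). The part of cell composition in either difference was not tested.

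**Figure D4:**
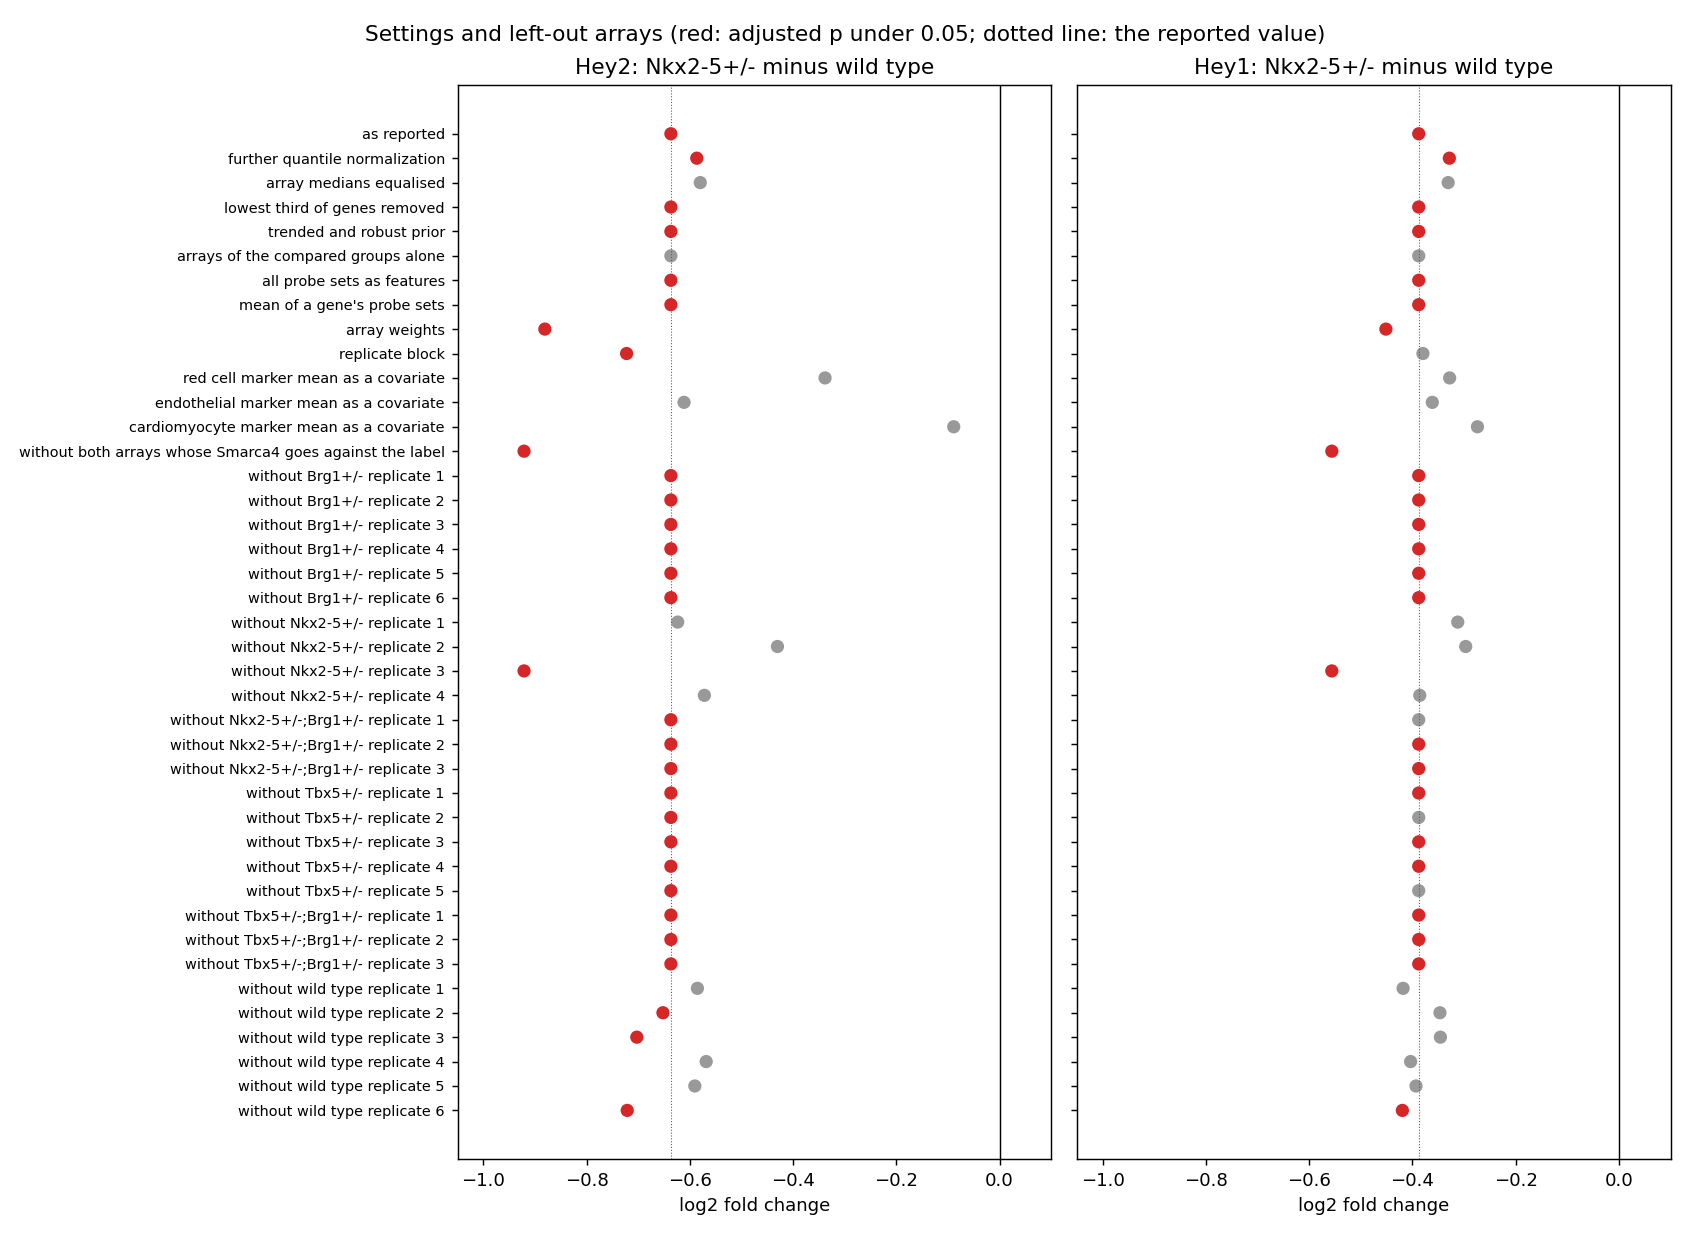
Log2 fold change of Hey2 and Hey1 in Nkx2-5+/- against wild type (horizontal axis) as reported and under each of 40 alternatives (vertical axis), red where the limma adjusted p was under 0.05. Every value lies below 0; Hey2 runs from -0.92 to -0.09, the last with the cardiomyocyte marker mean as a covariate.

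Within genotypes, several members varied together with marker genes of particular cells. Deviations from the genotype means were correlated over the 27 arrays, with 10 relations in each family, 100000 permutations within genotypes and adjustment within the family. With the endothelial marker mean, Notch1 had r = 0.88 and rho = 0.91 (permutation p = 1e-05 for both, the smallest these permutations can give, adjusted p = 0.0001), and r was 0.84 without the 2 arrays farthest from the median of the marker mean. Dll4 had r = 0.68 and rho = 0.66 (permutation p = 0.00104 and 0.00223, adjusted p = 0.00347 and 0.00743), and Notch4 r = 0.67 and rho = 0.63 (permutation p = 0.00091 and 0.0017, adjusted p = 0.00347 and 0.00743), with r of 0.66 and 0.60 without those arrays. Notch2 had r = 0.59 and rho = 0.56 (permutation p = 0.00651 and 0.00983, adjusted p = 0.0163 and 0.0246), and 0.52 without them. Jag1 had r = 0.56 and rho = 0.42 (permutation p = 0.0229 and 0.0868, adjusted p = 0.0458 and 0.174), but 0.31 without those arrays, while Hey1 and Hey2 had r = 0.19 and 0.10 (adjusted permutation p = 0.557 and 0.697).

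Dll4, Notch1, Jag1 and Notch4 ran against the red cell marker mean. Notch2 did not pass there, at r = -0.35 and rho = -0.35 (adjusted permutation p = 0.143 and 0.144). Dll4 had r = -0.56 and rho = -0.56 (permutation p = 0.00659 and 0.00633, adjusted p = 0.0355 and 0.0386), and -0.41 without the 2 arrays farthest on that mean. Notch1 had r = -0.53 and rho = -0.51 (adjusted permutation p = 0.0355 and 0.045, and -0.39), Jag1 r = -0.52 and rho = -0.41 (adjusted permutation p = 0.0355 and 0.132, and -0.25) and Notch4 r = -0.49 and rho = -0.54 (adjusted permutation p = 0.0355 and 0.0386, and -0.36). Hey2 had r = -0.49 (adjusted permutation p = 0.0693, and -0.31), and Hey1 had r = -0.18 (adjusted permutation p = 0.624).

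Hey2 varied with the cardiomyocyte markers, a family added after seeing the data. Its r was 0.82 and its rho 0.79 (permutation p = 0.00066 and 0.00014, adjusted p = 0.0066 and 0.0014), falling to 0.74 without the 2 farthest arrays and to 0.65 without the 2 that go against their labels. With the level of Nkx2-5 itself, also added later, r was 0.85 and rho 0.84 (permutation p = 3e-05 and 1e-05, adjusted p = 0.0003 and 0.0001), and 0.77 without either pair of arrays. Hey1 did not share this pattern, with r = 0.30 and rho = -0.19 to the cardiomyocyte markers (permutation p = 0.448 and 0.437, adjusted p = 0.56 and 0.655). Its r turned to -0.17 without the 2 farthest arrays and to -0.60 without the 2 that go against their labels.

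**Figure D5:**
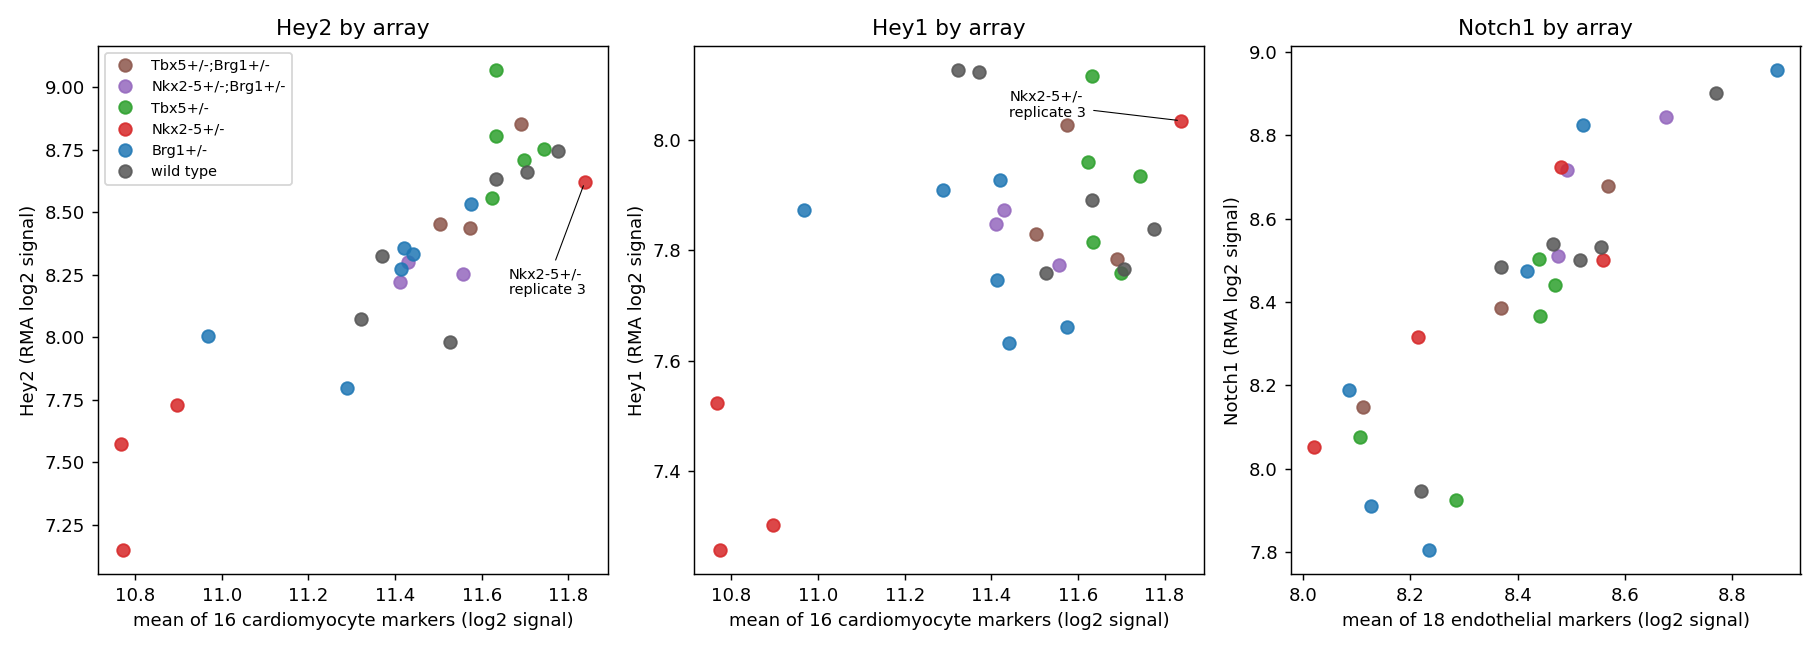
RMA log2 signal of Hey2, Hey1 and Notch1 (vertical axes) against the mean log2 signal of 16 cardiomyocyte or 18 endothelial markers (horizontal axes), a point per array coloured by genotype. Over all arrays Hey2 is higher where the cardiomyocyte markers are higher, though not within Tbx5+/- or Nkx2-5+/-;Brg1+/-, Notch1 is higher where the endothelial markers are, and the array labelled Nkx2-5+/- replicate 3 lies at the top of the cardiomyocyte axis at 11.84.

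The relation of Hey2 to Nkx2-5 was also read within the groups of 6 arrays, wild type and Brg1+/-. In the order of rising Nkx2-5, at 9.17, 9.24, 9.49, 9.83, 9.88 and 9.96, the wild-type arrays had Hey2 at 7.98, 8.07, 8.33, 8.63, 8.66 and 8.75. The 6 arrays had the same order in both genes, with r = 0.999 and rho = 1.0 (exact permutation p = 0.0014 and 0.0028 over 720 orders, adjusted over 4 relations p = 0.0056 and 0.0112), and r stayed at 0.999 without the 2 farthest arrays. In the 6 Brg1+/- arrays r was 0.79 and rho 0.77 (exact permutation p = 0.0597 and 0.103, adjusted p = 0.103 for both), and 0.31 without the 2 farthest. Against the cardiomyocyte marker mean the wild-type arrays gave r = 0.79 and rho = 0.83 (exact permutation p = 0.0861 and 0.0583, adjusted p = 0.103 and 0.0777). The Brg1+/- arrays gave r = 0.72 and rho = 0.89 to that mean (exact permutation p = 0.103 and 0.0333, adjusted p = 0.103 and 0.0666), and r = 0.99 without the 2 farthest. These 4 relations were also chosen after seeing the data.

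Between members, 8 of 45 pairs had an adjusted permutation p of r under 0.05 over the same deviations. Notch1 went with Dll4 (r = 0.80, rho = 0.75, adjusted permutation p = 0.00165 and 0.0063, and r = 0.73 without the 2 farthest arrays) and with Notch2 (r = 0.77, rho = 0.69, adjusted permutation p = 0.00157 and 0.0141, and 0.73). Notch2 went with Jag1 (r = 0.72, rho = 0.80, adjusted permutation p = 0.00157 and 0.00045, and 0.66). Among targets, Hey1 went with Hes1 (r = 0.61, rho = 0.64, adjusted permutation p = 0.0115 and 0.0144, and 0.51), while Hey1 and Hey2 had r = 0.33 and rho = -0.02 (adjusted permutation p = 0.543 and 0.959). Their r turned to -0.26 without the 2 farthest arrays and to -0.22 without the 2 that go against their labels.

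The genes most like each member were taken as the 2 with the highest correlation of deviations over the 27 arrays, among 11634 genes with a mean of at least 6. For Hey2 these were Pkp2, a desmosome gene of heart muscle, at r = 0.91 and Lbh at 0.90. For Notch1 they were Col4a1, a basement membrane collagen, at 0.93 and Heg1, an endothelial junction gene, at 0.92. Notch2 stood nearest to Unc5c at 0.95 and Pdgfra, a receptor of mesenchyme, at 0.94. Rbpj was nearest to Cald1 at 0.91, Jag1 to Plxna2 at 0.87, Dll4 to Ahdc1 at 0.85, Hes1 to Cdyl2 at 0.82, Hey1 to Slc25a32 at 0.81, Notch4 to Igfbp5 at 0.75 and Heyl to Gxylt2 at 0.68. Without the 2 arrays farthest on the member, r was 0.55 for Notch4, 0.58 for Heyl and 0.70 for Hey1. It was 0.75 to 0.94 for the other pairs named.

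Beyond the members, 71 other genes of the pathway were measured. In Nkx2-5+/- against wild type 2 rose and 5 fell, so 7 were called where 7.89% of all genes were, a share near that background. The 2 that rose, of 16 nuclear cofactors, were Spen, a corepressor that binds RBPJ, at 0.48 (limma adjusted p = 0.00985), and Ep300, a coactivator acetyltransferase, at 0.40 (limma adjusted p = 0.0454). Of 9 other Hes-family and direct target genes, Hes6 fell by 0.44 and Bhlhe40 by 0.56 (limma adjusted p = 0.0223 and 0.0255). Of 16 genes acting downstream of Notch or Hey in heart, 3 fell: the myosin-binding protein gene Mybpc3 by 0.92, the natriuretic peptide gene Nppa by 0.78 and the right ventricular factor gene Hand2 by 0.39 (limma adjusted p = 0.0233, 0.0328 and 0.0402). None of 9 other ligands, receptors and fringe genes or of 21 genes of receptor processing and ligand endocytosis was called by limma there, with 1 and 7 of them at an unadjusted p under 0.05.

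In the interaction of Nkx2-5 with Brg1, 3 of the 71 genes were higher and 0 lower, where 4.95% of all genes were called. These were Dlk1, a non-canonical Notch ligand, at 0.88, the cardiac factor Gata4 at 0.65 and Hand2 at 0.64 (limma adjusted p = 0.0388, 0.0379 and 0.0318). In the other 7 comparisons 0 of the 71 were called by limma, with 1 to 13 of them at an unadjusted p under 0.05. Gja5, the connexin gene of atria and trabeculae, had the smallest p of them in Tbx5+/-;Brg1+/- against wild type, at -1.10 (limma adjusted p = 0.102), and stood at -0.63 in Tbx5+/- (limma adjusted p = 1.0).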

How the data were processed

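RNA from E11.5 mouse hearts was biotin-labelled and read on Affymetrix arrays, 1 per sample, per the labels. The authors deposited log2 signals of 28815 probe sets for 27 arrays. Affymetrix Power Tools and RMA are named in the submitters' processing notes, with no versions, and the values were used as given. The genome build is not given in the sources used here. Of the probe sets, 21780 have a single symbol in the platform annotation; these were kept, and the one with the highest mean stood for a gene.

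Genotypes came from the labels. A linear model with the 6 group means was fitted to every array in limma 3.58.1 (R 4.3.3; 21 residual and 6.71 prior degrees of freedom), tests were two-sided, and Benjamini-Hochberg adjustment ran over 19935 genes in each comparison. The p-values take each array for a separate embryo; the labels say nothing on this, so the spread may in part be technical. Precision is limited by the number of arrays. Array medians ran from 6.18 to 6.33, correlations between arrays from 0.973 to 0.995, and 0 pairs of arrays were identical.

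The members, the lists of other pathway genes and the marker lists were chosen with earlier results of these data known. All members are named. Names were open to at most 4 called genes of a list, by p, or to the 2 genes of lowest p as values where a list had no call, and to the 2 genes nearest to each member; some were left out. Alternatives were another normalization, a filter on low genes, other variance priors, the compared groups alone, other probe set rules, array weights, a replicate block, marker means as covariates, and arrays left out singly or, for the 2 against their labels, together. The fit was tested on simulated data. Plots used matplotlib 3.10.9 and Python 3.11.15.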

Additional observations from a re-analysis of the deposited data

How the results depend on the processing

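Of the 90 differences of members in 9 comparisons, 37 changed sign under at least 1 of 40 alternatives, and none of those was called; neither of the 2 called differences did. The count of called members in Nkx2-5+/- against wild type was 2, and 0 with array medians equalised, with the compared groups alone and with the red cell, endothelial or (added after seeing the data) cardiomyocyte marker mean as a covariate. It was 0 to 2 with an array left out: 0 where that array was wild-type replicate 1, 4 or 5 or number 1, 2 or 4 of Nkx2-5+/-, and 1 where it was wild-type replicate 2 or 3, number 2 or 5 of Tbx5+/- or number 1 of Nkx2-5+/-;Brg1+/-. In Nkx2-5+/-;Brg1+/- against Nkx2-5+/- the count was 0, and 2 with array weights or without both arrays against their labels, with 0 to 2 when an array was left out (2 without Nkx2-5+/- replicate 3). In the interaction of Nkx2-5 with Brg1 it was 0, and 3 with array weights or without both arrays, with 0 to 3 when an array was left out (3 without Nkx2-5+/- replicate 3, 1 without Brg1+/- replicate 5). In the other 6 comparisons it was 0 under all 40. The cause of these changes was not tested, and the share of all genes called under each alternative is not given here. The replicate numbers did not pair the arrays: deviations of 55 same-numbered pairs correlated at -0.45 to 0.41, with 18 pairs over 0.1. With the number as a replicate block, 1 member, Hey2, was called in Nkx2-5+/- against wild type. Groups of 3 to 6 arrays leave the intervals of single members wide, and a missed threshold does not show that a member did not change.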
